A study of Mus musculus with 29 samples.

Results

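The comparison of late with mid passage endoderm was made on 6 of the 29 arrays of the series: 3 Late and 3 Mid cultures, chosen by their sample labels. Both groups are nEnd cultures, endoderm that was raised from the mouse embryonic stem cell line HRHnG, a male line with 2 reporters, and then kept by passaging in nEnd medium. Late cultures were taken at passage 14 to 15 and Mid cultures at passage 7 to 10. Both descend from stem cells (the ESC group, kept in 2i and LIF) that were given Activin, CHIRON and LIF for 7 to 8 days (the Diff group), so these treatments lie behind the controls as well as the later cultures. The labels give no other treatment or genotype that separates Late from Mid. XEN cells, extraembryonic endoderm of another line, and the ESC and Diff groups (3 arrays each) are used below only to place levels. Per the series design, each nEnd replicate came from a separate set of differentiations and passages, and all of them rest on 1 parental line.

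Primitive endoderm is the extraembryonic layer that forms next to the epiblast in the mouse blastocyst. It is specified by GATA and SOX transcription factors, lays down a basement membrane of laminin and collagen IV, and later gives the visceral and parietal endoderm. Cells kept in long culture are commonly followed for identity genes, for growth and stress genes and for the balance of their chromosomes.

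RNA was labelled with Cy3 and read on single-colour arrays. A level is given here as the log2 signal of the probe that stands for a gene minus the 75th percentile of that array, so that 0 is the brightness of that percentile; levels of different genes come from different probes and are not set against each other. A difference is Late minus Mid on that log2 scale with its standard error (SE), and a gene was called at a limma adjusted p under 0.05 over all 16333 genes tested. In the model of all 29 arrays, the SE rests on the spread within all 9 groups. A gene can therefore stay uncalled although its Late and Mid arrays lie apart. The share of probes that the scanner software marked as well above background was 59.1% to 67.9% on the Late arrays and 53.5% to 65.3% on the Mid arrays, with 0 probes saturated. The spread between arrays was smaller in Late: the median over genes of the standard deviation was 0.22 in Late and 0.32 in Mid (n = 3 each), and it was larger in Mid for 63.7% of genes. Mid 3 was scanned on another day than the Late arrays, Mid 1 and Mid 2, and the part of scan day in that spread was not tested. Where a culture holds several cell types, fewer cells of a type and less RNA per cell cannot be told apart.

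Genes of the endoderm lists were detected in both passages. Of all 16333 genes tested, 13322 were well above background on all 6 arrays, so such counts alone do not mark a culture as endoderm. All 20 tested genes of the primitive endoderm list were well above background on all 3 Late and all 3 Mid arrays, and so were 13 of 15 parietal genes, while 19 of 21 visceral genes were so in Late and 18 of 21 in Mid. Of the other cell types a culture could hold, the fibroblast list had 4 of 11 genes well above background on every Late array and 3 of 11 on every Mid array. Its summed linear level was 3.12 to 6.33 in Late and 3.98 to 14.4 in Mid, in units of the 75th percentile, with the collagen-binding proteoglycan gene Dcn and Postn not well above background in either group. The trophoblast list had 10 of 13 tested genes well above background on every Late array and 9 on every Mid array; it summed to 54.8 to 61.5 in Late and 25.8 to 95.8 in Mid, and its transcription factor gene Hand1 was not well above background in either. The neural list had 9 of 13 on every Late array and 8 on every Mid array, with Map2 and Neurod1 below that mark in both. It summed to 4.49 to 5.38 in Late and 4.76 to 4.97 in Mid. The mesoderm and blood list had 12 of 14 tested genes well above background on every Late array and 12 on every Mid array. Most tested genes of the trophoblast, neural, and mesoderm and blood lists were thus detected in both groups. Whether such cells were present was not tested. Naive pluripotency genes were detected in both groups, summing to 332 to 386 in Late and 252 to 334 in Mid; their part in the results below was not tested.

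Between the passages, 1118 genes were called, 6.85% of those tested: 617 stood higher in Late (3.78%) and 501 lower (3.07%). In size, 624 differed by more than 1 on the log2 scale, 254 of them higher and 370 lower. The median difference was 0.90 among genes called higher and -1.42 among genes called lower, beside 0.12 over all genes tested. The 3 Late arrays lay wholly above or below the 3 Mid arrays for 4821 genes (29.5%), and for 1074 of the 1118 called genes. Late minus Mid of the same replicate number had 1 sign in all 3 pairs for 47.8% of all genes and for 1107 of the called genes. With quantile normalization, which brought the median over all genes to 0.0017, the split turned to 471 higher and 742 lower; it was 653 and 906 with normexp background correction, 528 and 704 in the authors' deposited series matrix, and 90 and 294 when each array was centred on the median of all probes.

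Pairing by replicate number changed the count according to how the spread was estimated. With the number as a fixed term for the Late and Mid arrays in the model of all 29 arrays, the calls numbered 1104 (6.76%), with 615 higher in Late, 489 lower and 1037 shared with the 1118. With the number as a random block the count was 2113 (12.9%), 1240 higher and 873 lower, which held all 1118. With the number as a block in the 6 arrays alone, limma called 0 genes (0%); 3487 were at an unadjusted p under 0.05, the lowest adjusted p was 0.0607 and 4.6 degrees of freedom were left. Without a block, the 6 arrays alone gave 255 calls, 79 higher and 176 lower. Of 94 genes named below, 91 were also called with the number as a fixed term, and 94 as a random block. Leaving out 1 array in the model of all arrays gave 409 calls without Late 3, 438 without Late 1, 493 without Mid 1, 658 without Mid 2, 1039 without Late 2 and 1272 without Mid 3. Of the 94 named genes, 44 were still called without Late 1, 44 without Late 3, 49 without Mid 1, 56 without Mid 2, 75 without Mid 3 and 76 without Late 2. Slide 3 held Late 1 and Mid 1, slide 1 held Late 2, Late 3 and Mid 2, and Mid 3 lay on slide 2 without a Late array. Mid 3 was also scanned on scan day 2, and all Late arrays, Mid 1 and Mid 2 on scan day 1. The part of scan day in what sets Mid 3 apart below was not tested. With scan day as a fixed term in the model of all arrays, 1114 genes were called. Within slide 3 and within slide 1, all 1118 called genes differed in the direction of the call. The same arrays made those calls, so this agreement follows largely from how the genes were chosen and is no separate test of slide. With slide as a fixed term 1640 genes were called, 1006 of the 1118 among them.

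**Figure D1:**
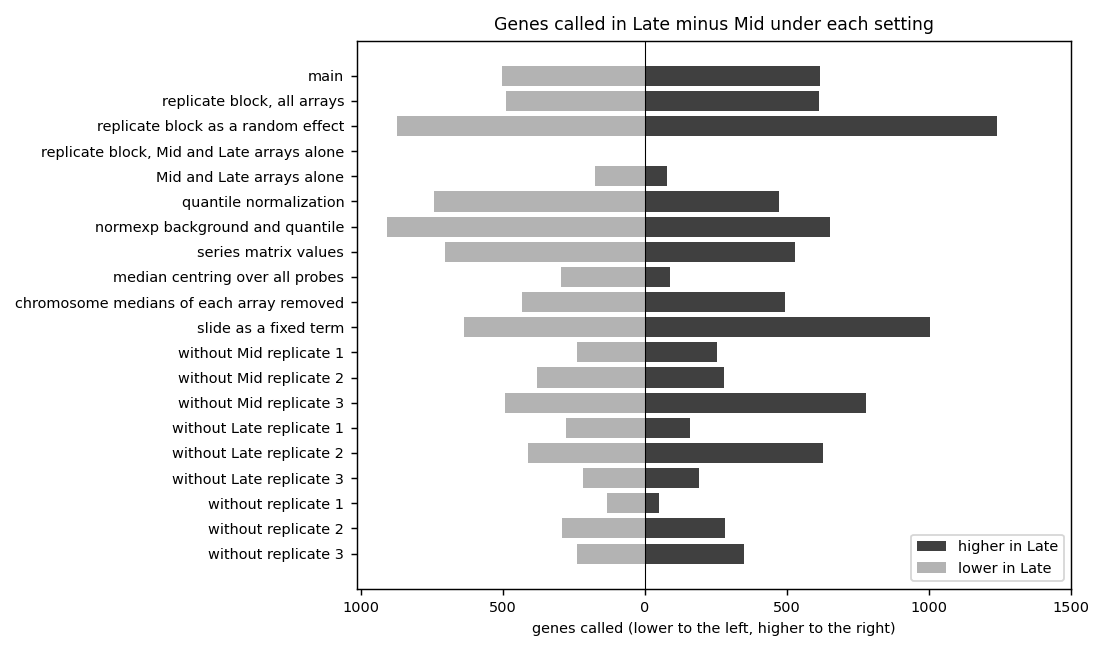
Genes called in Late minus Mid under the analysis as reported (main) and 19 other settings, as horizontal bars: genes higher in Late run to the right and genes lower in Late to the left, on an axis of gene counts. The main setting has 617 and 501, and the block in the 6 arrays alone has none.

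The genes described first are the 15 with the largest fitted difference in each direction among called genes whose arrays did not overlap and whose 3 pairs had 1 sign. Among those well above background on all 6 arrays, the largest fall was in Arhgef26, a guanine nucleotide exchange factor, at -3.82, -4.40 and -3.77 in the Late arrays, against 0.17, -0.08 and -0.07 in the Mid arrays. The groups lay far apart, with a difference of -4.00 ± 0.48 (adjusted p = 4.90e-05) that was -1.89 with normexp background correction and -2.48 in the authors' deposited series matrix. Cxcl5, a chemokine that draws neutrophils, read -6.77, -6.82 and -6.35 in the Late arrays, against -1.50, -2.48 and -0.46 in the Mid arrays. It was not well above background on any Late array, nor on any ESC, Diff or XEN array, so the mean of Mid over Late is a bound of at least 8.63-fold (adjusted p = 0.000357). St6galnac5, a sialyltransferase, read -4.45, -4.77 and -6.66 in the Late arrays, against 0.39, -0.06 and -0.98 in the Mid arrays, and 1 Late array was well above background. The sizes depend on how background is treated: the median size of the difference over the 30 genes was 3.69 on the log2 scale, against 1.19 with normexp over the same 30 and 1.54 over the 24 with a value in the series matrix.

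Several genes fell below the detection mark in Late. The zinc finger gene Zfp26 was not well above background on any Late array and was at least 11.4-fold lower. The same held for Wdr5b (at least 4.88-fold), Rsph1, a gene of the ciliary radial spoke (at least 5.58-fold), Zfp709 (at least 4.08-fold) and the platelet chemokine gene Pf4 (at least 2.89-fold, with 2 of 3 Mid arrays above the mark). Wdr5b, Rsph1, Zfp709 and Pf4 were likewise not well above background on any XEN array, whereas Zfp26 was on all 3. In all, 33 genes called lower were not well above background on any Late array.

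The 15 falls also held Birc3, an inhibitor of apoptosis (-3.31), and Ankrd1, taken up with its list below. Gdf15, a secreted stress cytokine, read -1.32, -0.47 and -1.38 in the Late arrays, against 4.08, 2.25 and 1.38 in the Mid arrays. Pmaip1, which encodes the pro-apoptotic protein NOXA, read -0.51, -0.39 and -0.72 in the Late arrays, against 3.08, 2.38 and 3.00 in the Mid arrays. Neither gene's groups overlapped, and Pmaip1 had the tighter Late arrays (SD 0.17 in Late and 0.38 in Mid). Its Diff mean was 2.95 and its ESC mean -0.31. The remaining ones were the membrane protein gene Eva1c (-3.45), Plscr2 (-3.76), a phospholipid scramblase, and the amylase gene Amy2a5 (-3.49). Birc3, Plscr2 and Amy2a5 were well above background on 1 Late array each, so their fitted sizes rest in part on signal at the floor.

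On the other side, the largest rise among genes well above background on all 6 arrays was in Syt10, a synaptotagmin of regulated secretion, at 3.25, 2.99 and 2.71 in the Late arrays, against -2.32, 1.87 and -2.72 in the Mid arrays (4.04 ± 1.07, adjusted p = 0.0258). Here Mid 2 stood close to the Late arrays and the other Mid arrays far below. Slc44a5, a choline transporter-like gene, read -0.54, -1.76 and -0.92 in the Late arrays, against -6.14, -6.47 and -4.89 in the Mid arrays (adjusted p = 0.0171), with 1 Mid array well above background. Its fitted difference of 4.76 was 1.27 with normexp and 1.36 in the authors' deposited series matrix. Nod1, a cytosolic sensor of bacterial peptidoglycan, read 0.49, 0.91 and 0.50 in the Late arrays, against -3.27, -2.72 and -1.84 in the Mid arrays (3.24 ± 0.44, adjusted p = 0.000168). Its Diff mean was 0.85, so the Mid arrays were the low ones among the 3 stages.

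The other large rises took in metabolic and signalling genes. Fabp1, the liver fatty acid binding protein, was not well above background on any Mid array and was at least 4.97-fold higher in Late. Pck1, the rate-limiting enzyme of gluconeogenesis, was at least 4.84-fold higher, the sulfotransferase gene Chst11 at least 5.34-fold, the ephrin receptor gene Ephb1 at least 7.29-fold, Ucma at least 3.86-fold and the ABC transporter gene Abca14 at least 3.55-fold. Tcf15, a basic helix-loop-helix factor linked to the exit from naive pluripotency, read 1.30, -0.17 and 1.00 in the Late arrays, against -3.26, -3.13 and -0.96 in the Mid arrays (3.16 ± 0.57). The Wnt ligand gene Wnt6 (3.22), Kcnq1ot1, the long RNA of an imprinted cluster (3.98), Smlr1 (3.97) and Sobp (3.37) were each well above background on 1 Mid array, so that these fitted sizes too rest in part on the floor. Pkd1l2 (3.10) completes the 15, and 25 genes called higher were not well above background on any Mid array. Several of these rises were not called in many of the 21 alternatives taken up below. Pck1 (adjusted p = 0.0487) and Ucma were called in 11 of the 21, Kcnq1ot1 in 12, Sobp in 13 and Syt10 in 14. A setting in which a gene had no value counts here as not called. Pck1, Ucma, Kcnq1ot1 and Sobp had none among probes well above background on all 6 arrays.

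**Figure D2:**
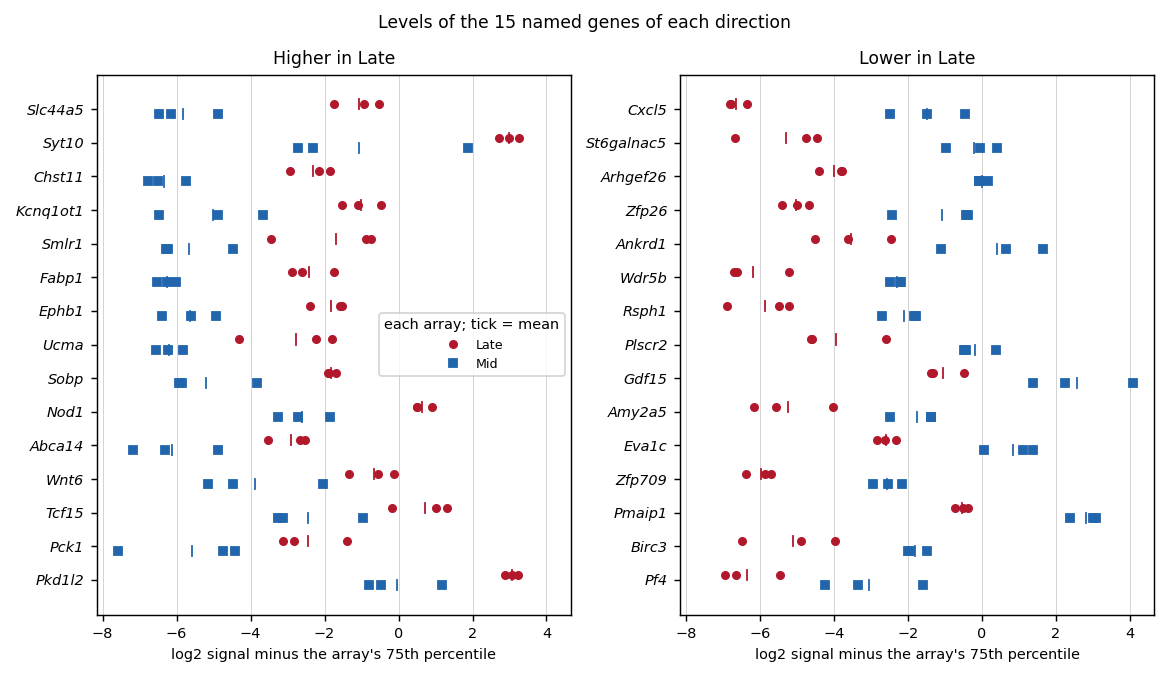
Levels of the 15 genes with the largest difference in each direction among called genes whose arrays did not overlap and whose 3 pairs had 1 sign; the horizontal axis is the log2 signal minus the array's 75th percentile. Red circles are the 3 Late arrays, blue squares the 3 Mid arrays and ticks the group means; Syt10 has 1 Mid array near the Late arrays.

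A set of 91 genes, 60 lower and 31 higher in Late, was called with 1 sign under 21 of the 28 other settings. The block in the 6 arrays alone and the 6 settings chosen after seeing the data are not among the 21; 51 of the 91 were called under those 6 as well. A gene without a value in any of the 21 could not enter the set. All 91 were therefore well above background on all 6 arrays and had a value in the series matrix. Besides Arhgef26, Eva1c and Pmaip1, the lower ones included Depp1 (-3.29), a FOXO-responsive gene of autophagy, Abcb1b (-3.12), a P-glycoprotein drug efflux pump, and Slco4a1 (-3.02), an organic anion transporter. Casp8, the initiator caspase of death receptors, read -0.20, -0.94 and -0.14 in the Late arrays, against 1.89, 1.71 and 1.78 in the Mid arrays. The glucocorticoid receptor gene Nr3c1 differed by -1.93 ± 0.31, the complement inhibitor gene Cd55 by -2.19 ± 0.42, the transcriptional repressor gene Bcl6 by -1.15 ± 0.25 and the retinaldehyde dehydrogenase gene Aldh1a1 by -1.97 ± 0.37. Among the higher ones besides Nod1, Tnfrsf1a, the main TNF receptor, read 1.72, 1.58 and 1.55 in the Late arrays, against 0.09, -0.29 and -0.81 in the Mid arrays. Mylip, an E3 ligase that degrades the LDL receptor, differed by 1.67 ± 0.27. Phf19, a Polycomb-associated factor, differed by 1.64 ± 0.31 and Mpi, the mannose phosphate isomerase gene, by 2.36 ± 0.20.

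Cholesterol synthesis genes stood higher in Late. All 20 tested members had a positive difference, with a median of 0.82 beside 0.12 over all genes. Of these, 6 were called (30%, beside 6.85% of all genes), all higher. Their enzymes turn acetyl-CoA into sterol through mevalonate and squalene. Mvk, the mevalonate kinase gene, read 5.91, 4.83 and 5.68 in the Late arrays, against 4.48, 4.22 and 4.20 in the Mid arrays (1.18 ± 0.26, adjusted p = 0.00851). Its groups did not overlap, and Late 2 was the lowest Late array. Further along the pathway, Mvd differed by 1.33, the squalene epoxidase gene Sqle by 0.94, the lanosterol demethylase gene Cyp51 by 1.42 and Hsd17b7 by 1.60. The pair medians of the list were 1.03, 0.63 and 0.61. Leaving out Late 1 or Late 3 left 1 call, leaving out Mid 1 or Mid 2 left 3, and centring on all probes left 1.

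Promoter sequences (RefSeq, GRCm38.p6, 250 bases before to 50 after the start) were matched for 15 of the 20 genes, and 14 held the letters of a CCAAT box, ATTGG on either strand, against 42.4% of the 12939 tested genes with a promoter. The letters CCAAT are bound by NF-Y, a partner of sterol-regulated transcription at many of these promoters. All 4 called members with a promoter held it, and the stretches before their starts are printed with each match in capitals, to show how often it recurs. The Mvk stretch is chr5:114444066-114444268 (plus strand), that of Hsd17b7 chr1:169969206-169969400 (minus strand), that of Mvd chr8:122443423-122443512 (minus strand) and that of Cyp51 chr5:4104698-4104756 (minus strand).
Mvk: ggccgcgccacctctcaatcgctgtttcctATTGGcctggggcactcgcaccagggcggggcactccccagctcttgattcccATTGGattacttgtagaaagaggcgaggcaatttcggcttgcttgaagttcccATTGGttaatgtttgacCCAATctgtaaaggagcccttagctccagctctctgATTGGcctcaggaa
Hsd17b7: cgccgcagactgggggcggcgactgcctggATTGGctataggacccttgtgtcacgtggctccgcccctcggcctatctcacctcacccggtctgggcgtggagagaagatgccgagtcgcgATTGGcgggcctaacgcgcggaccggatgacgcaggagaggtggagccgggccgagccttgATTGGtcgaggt
Mvd: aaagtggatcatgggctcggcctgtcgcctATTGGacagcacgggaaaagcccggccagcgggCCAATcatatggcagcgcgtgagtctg
Cyp51: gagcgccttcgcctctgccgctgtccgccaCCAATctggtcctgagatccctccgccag
The core of the sterol response element, TCACNCCAC on either strand, was found in 1 of the 15 promoters, that of Hmgcs1, which was not called, and in 1.43% of all. Matches were counted whether or not they overlapped another motif.

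Fatty acid synthesis genes had a median of 0.35 over 19 tested members, with 2 called (10.5%, beside 6.85% of all genes). Both were higher: Fasn, the fatty acid synthase gene (1.29 ± 0.36), and Scd1, a desaturase gene (0.87 ± 0.25). Neither was called without Late 1, Late 3, Mid 1 or Mid 2. In the list of lipid transport genes, 3 of 23 were called higher and 1 lower (17.4% called). Fabp1 is described above; Lipg, an endothelial-type lipase gene, differed by 2.15 ± 0.57 with 1 Mid array well above background, and Scarb1, the HDL receptor gene, by 0.76 ± 0.21. The member that was lower was Apoa1, the main HDL apolipoprotein, at -1.13, -0.20 and -1.45 in the Late arrays, against 2.99, 1.44 and 0.55 in the Mid arrays. In the list of sterol regulation and uptake, Mylip alone was called among 18 genes (5.56%). The lipid transport count was 1 without Late 1 and 2 without Late 3 or Mid 2.

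The list of serine, one-carbon and threonine metabolism had 4 of 21 tested genes called (19.0%, beside 6.85% of all genes), all higher. Its median was 0.38, beside 0.12 over all genes. Tdh, the threonine dehydrogenase on which mouse stem cells depend, read 6.53, 4.56 and 6.39 in the Late arrays, against 1.71, 2.33 and 4.22 in the Mid arrays (3.07 ± 0.58, adjusted p = 0.00245). Gcat, the next enzyme of that path, read 5.01, 4.08 and 5.01 in the Late arrays, against 2.29, 2.83 and 3.47 in the Mid arrays. For both genes Late 2 was the lowest Late array and Mid 3 the highest Mid array, without overlap. Both other calls were glycine cleavage genes, Gldc (1.74 ± 0.38) and Gcsh (1.15 ± 0.24), and for Gldc the groups met, with Late 2 and Mid 3 both at 3.02. Of the other genes of that system, Amt differed by 1.10 ± 0.44 (adjusted p = 0.143) and Dld by -0.22 ± 0.22 (adjusted p = 0.625), neither called. The ESC means were 7.89 for Tdh and 5.67 for Gcat, and the XEN means 1.37 and 4.23.

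DNA replication genes rose in part. Of 24 tested members, 7 were called (29.2%, beside 6.85% of all genes), all higher. A positive difference was seen in 23, and the median was 0.44, beside 0.12 over all genes. Cdc6, which loads the replicative helicase, read 1.61, 0.41 and 1.15 in the Late arrays, against 0.03, -0.37 and -0.04 in the Mid arrays (1.19 ± 0.33, adjusted p = 0.03). Of the helicase subunits, Mcm5 differed by 0.90, Mcm3 by 0.87, Mcm2 by 0.82 and Mcm6 by 0.78. Mcm6 read 6.52, 6.09 and 6.28 in the Late arrays, against 5.36, 5.46 and 5.73 in the Mid arrays. The loading factor gene Cdt1 differed by 0.58 and Mcm10 by 0.80; Mcm2 was not called with the number as a block (adjusted p = 0.0542). Mitosis genes had 0 calls by limma among 24 (5 at an unadjusted p under 0.05) with a median of 0.29, and the difference between both lists was not tested. The replication count was 1 without Late 1, Late 3, Mid 1 or Mid 2, 4 with chromosome medians removed and 0 with arrays centred on all probes.

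Promoters were matched for 19 of the replication genes. The E2F site, TTTCCCGC or TTTGGCGC on either strand, was in 8 of them, in 5 of the 7 called members and in 3.01% of all tested genes with a promoter. Among all genes called higher it was in 4.97% and among all called lower in 2.23%. In Mcm3 and Cdt1 the matches lie after the start; the stretches of the other 3 called members are printed because they place the site before the start, with the site in capitals. The Mcm6 stretch is chr1:128359715-128359845 (minus strand), that of Mcm5 chr8:75109330-75109397 (plus strand) and that of Cdc6 chr11:98907983-98908050 (plus strand).
Mcm6: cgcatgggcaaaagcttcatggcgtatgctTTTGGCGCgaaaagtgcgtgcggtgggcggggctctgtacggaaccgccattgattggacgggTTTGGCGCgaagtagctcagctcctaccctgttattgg
Mcm5: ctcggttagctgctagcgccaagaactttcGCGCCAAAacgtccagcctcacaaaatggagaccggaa
Cdc6: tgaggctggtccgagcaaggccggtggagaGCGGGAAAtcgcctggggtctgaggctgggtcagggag
Mcm6 held the site in 2 places. These are matches of letters, and no binding was measured.

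Targets of p53 leaned the other way. Of 24 tested members, 21 had a negative difference, the median was -0.35 and 5 were called (20.8%, beside 6.85% of all genes), all lower. Beside Gdf15 and Pmaip1, these were Tnfrsf10b, the TRAIL death receptor gene (-1.69 ± 0.28, adjusted p = 0.000855), the polo-like kinase gene Plk2 (-1.12 ± 0.33) and Mdm2, the ubiquitin ligase that degrades p53 (-0.80 ± 0.23). Mdm2 read 5.12, 5.31 and 5.10 in the Late arrays, against 6.14, 5.80 and 5.97 in the Mid arrays. Its groups did not overlap and each had a narrow range. With the number as a block, Plk2 was not called (adjusted p = 0.0513). The count was 3 without Late 1, Late 3 or Mid 1. In the list of growth arrest and senescence genes, Rb1, the retinoblastoma gene, was the 1 call of 19 (5.26%), at -1.09 ± 0.29. It was not called without Late 1, Late 3, Mid 1 or Mid 3. Among apoptosis regulators (23.5% called), Birc3 and Casp8 were lower, and Bid (0.81 ± 0.25) and Diablo (0.63 ± 0.17), both of the mitochondrial path, were higher. The apoptosis count was 2 without Late 1, Late 3, Mid 1 or Mid 2.

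YAP target and contractile genes were lower in Late. Of 17 tested members, 16 had a negative difference, the median was -1.17 and 5 were called (29.4%, beside 6.85% of all genes), all lower. Ankrd1, a YAP target of muscle and stretched cells, read -3.62, -2.45 and -4.52 in the Late arrays, against 0.66, -1.09 and 1.65 in the Mid arrays (-3.93 ± 0.82, adjusted p = 0.0054). Ccn2, the connective tissue growth factor gene, read 3.73, 5.19 and 3.47 in the Late arrays, against 6.72, 5.76 and 6.73 in the Mid arrays. In both genes Late 2 and Mid 2 were nearest to each other. Lats2, a kinase that restrains YAP, differed by -1.46, the actin crosslinker gene Flna by -1.18 and Tead1, the DNA-binding partner of YAP, by -0.92. The pair medians of the list were -0.90, -0.20 and -2.27, so the second pair differed least. Without Mid 2 the count was 7, and it was 2 without Mid 3 or Late 3 and 3 without Late 1 or Mid 1.

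Chemokine and NF-kB genes had 4 of 17 tested members called lower and 1 higher (29.4% called, beside 6.85% of all genes), with a median of -0.89. Cxcl5, Birc3 and Nod1 are given above. Icam1, an adhesion molecule induced by NF-kB, read -3.64, -4.97 and -6.46 in the Late arrays, against -2.04, -3.26 and -0.93 in the Mid arrays, and 1 Late array was well above background. Nfkb1, which encodes the p105 and p50 subunit, differed by -1.51 ± 0.38. In the ERK list, the 1 call of 22 (4.55%) was Fos, a subunit of AP-1, at -2.97, -3.30 and -3.22 in the Late arrays, against -0.59, -0.25 and -0.98 in the Mid arrays. The list median was 0.33, and Fos was called without Mid 3 and under no other omission of 1 array. In the LIF and STAT3 list, 2 of 17 were called (11.8%), Cebpd (-1.75 ± 0.35) and Cish (-1.22 ± 0.33), both lower, with 8 members positive and 9 negative. Leaving out any array but Mid 3 left 1 call, Cebpd. Interferon-induced genes had a median of -0.41 over 17 members and 0 calls by limma (5 at an unadjusted p under 0.05). The antimicrobial lectin genes Reg3b (-2.91 ± 0.40) and Reg3g (-2.26 ± 0.52) were the 2 calls among 20 gut mucosal genes (10%), and neither was well above background on any ESC, Diff or XEN array. Without Late 3 the chemokine and NF-kB count was 3 and the gut mucosal count 1.

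**Figure D3:**
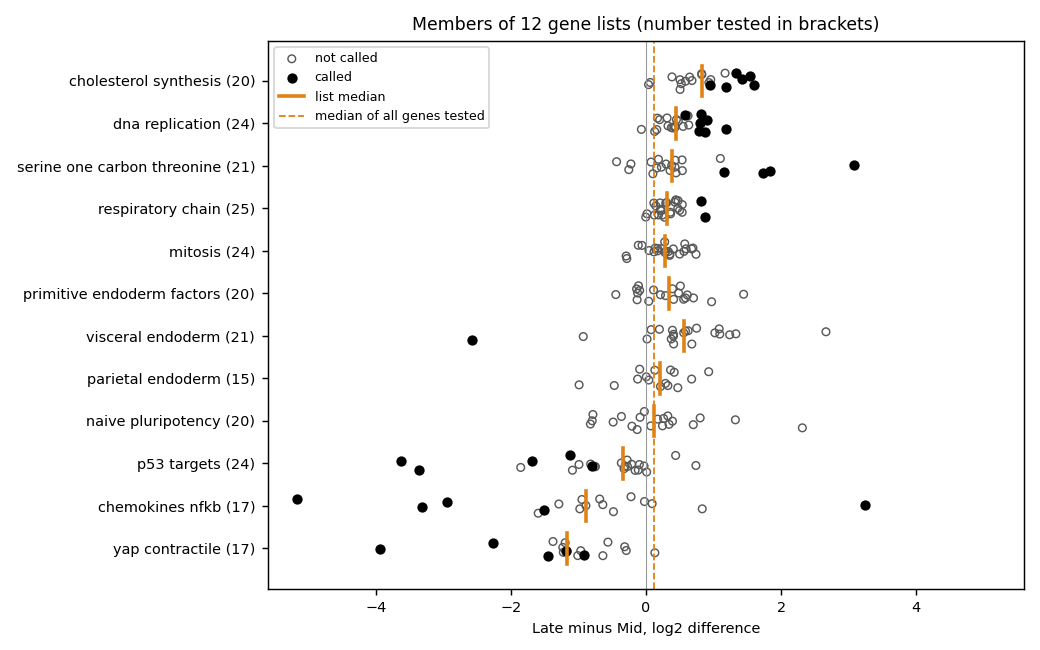
Late minus Mid of every tested member of 12 gene lists, 1 point per gene on a log2 axis, with filled points for called genes. Orange bars are list medians and the dashed line the median of all genes tested (0.12); the cholesterol median is 0.82 and the YAP and contractile median -1.17.

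No primitive or parietal endoderm gene was called. The primitive endoderm list had 0 calls by limma among 20 members and the parietal list 0 among 15, with 2 and 0 members at an unadjusted p under 0.05 and 6 and 3 members whose arrays did not overlap (beside 29.5% of all genes). Gata6, the factor that starts the primitive endoderm programme, read 4.57, 4.69 and 4.43 in the Late arrays, against 4.64, 4.59 and 4.80 in the Mid arrays. Sox17 read 5.39, 5.49 and 5.21 in the Late arrays, against 5.37, 5.54 and 5.05 in the Mid arrays. For both, the Late and Mid arrays overlapped. Sox7, a related factor, had means of 1.87 in Late and 0.43 in Mid, with a difference of 1.44 ± 0.75 that was not called (adjusted p = 0.274). The collagen IV gene Col4a1 differed by -0.13 ± 0.79 and the uptake receptor gene Cubn by 0.56 ± 0.74, neither called.

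Visceral endoderm genes had 19 positive differences among 21 and a median of 0.56, yet Apoa1 was the 1 call (4.76%, beside 6.85% of all genes), in the other direction. Ttr, the transthyretin carrier of thyroid hormone, read 5.47, 5.30 and 5.33 in the Late arrays, against 4.35, 3.74 and 4.02 in the Mid arrays without overlap (adjusted p = 0.243), and Apom 3.87, 3.14 and 3.90 in the Late arrays, against 2.32, 2.62 and 2.70 in the Mid arrays (adjusted p = 0.0549). The difference of Ttr was 1.33 ± 0.65, with an SE drawn from the spread within all 9 groups and not from these 6 arrays alone. Without Late 2, 3 members were called. Definitive endoderm genes had 2 calls of 20 (10%), Eomes, a T-box factor (1.31 ± 0.36), and Sfrp5, a secreted Wnt inhibitor (2.12 ± 0.57), while Gsc, Mixl1 and Cer1 were not well above background on any of the 6 arrays. In the basement membrane list, Fn1, fibronectin, read 3.61, 4.14 and 3.54 in the Late arrays, against 6.33, 5.31 and 4.56 in the Mid arrays and Lama5 differed by -1.07 ± 0.25, the 2 calls of 20 (10%), both lower. Eomes and Sfrp5 were not called without Late 1, Late 3 or Mid 1, nor were Fn1 and Lama5.

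The core pluripotency list had 1 call of 15 (6.67%, beside 6.85% of all genes), the RNA-binding protein gene Lin28a, at 4.87, 5.40 and 4.81 in the Late arrays, against 4.10, 4.03 and 3.35 in the Mid arrays (1.20 ± 0.29, adjusted p = 0.013). Pou5f1, the OCT4 gene, read 3.00, 3.26 and 3.17 in the Late arrays, against 1.94, 2.79 and 2.59 in the Mid arrays and was not called (adjusted p = 0.377). Its arrays did not overlap, and the XEN mean was -4.68. Sox2 was not well above background on any Late array and was so on 1 Mid array. The naive list had 0 calls by limma among 20 (1 at an unadjusted p under 0.05), with Nanog at -3.53, -5.01 and -4.48 in the Late arrays, against -5.64, -5.37 and -2.97 in the Mid arrays and Esrrb at 0.79, 0.16 and 0.52 in the Late arrays, against -1.62, -0.29 and 1.27 in the Mid arrays. In both genes Mid 3 stood above the other Mid arrays. Tcl1, a co-activator of AKT, had the largest difference of that list (2.31 ± 0.72, adjusted p = 0.0524) and was called with the number as a block (adjusted p = 0.0274).

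Wnt pathway and imprinted genes changed singly. In the Wnt list 3 of 18 were called higher and 1 lower (22.2% called, beside 6.85% of all genes): Sfrp1 (at least 1.64-fold higher, with 2 Late arrays well above background and 0 Mid arrays), Sfrp5, the transcription factor gene Tcf7 (1.15 ± 0.32), and on the lower side Lgr5, a receptor for R-spondins, at least 1.46-fold lower, with 0 Late arrays well above background and 2 Mid arrays. In the imprinted list 3 of 21 were called (14.3%), all lower. Igf2, the fetal growth factor, read -2.23, -2.53 and -1.68 in the Late arrays, against 1.23, 1.22 and -1.54 in the Mid arrays. Mid 3 stood next to the Late arrays and the other Mid arrays far above them. Zim1 had the same pattern of Mid arrays, at -6.51, -5.13 and -6.44 in the Late arrays, against -2.42, -2.43 and -5.21 in the Mid arrays, with overlap. The antisense long RNA Airn differed by -1.30 ± 0.36. All 3 lost their call without Mid 1, Mid 2 or Late 1, and the Wnt count was 1 without Late 1, Mid 1 or Mid 2 and 2 without Late 2 or Late 3. Of 24 lysosomal genes (12.5% called), Ctsl, a cathepsin of endoderm lysosomes, was higher (0.77 ± 0.20) while the cathepsin gene Ctsh (-2.82 ± 0.54) and the hexosaminidase gene Hexa (-1.25 ± 0.38) were lower, Hexa not with the number as a block (adjusted p = 0.062). Without Late 1, Late 3, Mid 1 or Mid 2, Ctsh was the 1 call left in that list.

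The direction of the calls was uneven over chromosomes. The share of genes called ran from 3.8% on chromosome 16 to 11.3% on chromosome 5, beside 6.85% of all genes. It was near the latter on chromosomes 12 (7.49%), 3 (7.71%), X (7.04%) and 11 (7.54%). On chromosome 12, 4 of 561 tested genes stood higher in Late by the test and 38 lower, with a median difference of -0.16 over its genes, beside 0.12 over all genes tested. On chromosome 3 the counts were 10 and 48 of 752 with a median of -0.17, and on chromosome X 6 and 37 of 611 with a median of 0.0023. The reverse held on chromosome 5, with 90 higher and 21 lower of 982 (median 0.26), on chromosome 1 with 70 and 23 of 900 (0.24), on chromosome 11 with 77 and 24 of 1339 (0.23) and on chromosome 15 with 54 and 10 of 662 (0.28). Over all chromosomes, 55.2% of the calls were higher, against 9.52% of the calls on chromosome 12 and 84.4% on chromosome 15.

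The same was read per array, from the 13322 genes well above background on all 6 arrays, as the median of each chromosome's genes against the mean of the ESC and Diff arrays, with the median of the array removed. The medians of Late and Mid did not overlap for 14 of 20 chromosomes (70%), 7 higher and 7 lower in Late. Chromosome 12 read -0.23, -0.28 and -0.27 in Late, against 0.050, 0.044 and 0.080 in Mid. The 3 Late arrays were alike and the 3 Mid arrays were near the mean of ESC and Diff. Chromosome 3 read -0.22, -0.19 and -0.24 in Late, against -0.0066, 0.014 and 0.097 in Mid. Chromosome 15 read 0.18, 0.20 and 0.19 in Late, against 0.022, 0.015 and 0.044 in Mid. When the genes of chromosome 12 were cut into 6 equal runs along it, the mean of the Late medians lay between -0.34 and -0.19 in every run and that of the Mid medians between 0.026 and 0.085.

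Chromosome 13 differed among the Mid arrays instead. It read -0.18, -0.23 and -0.21 in Late, against -0.45, -0.50 and -0.0075 in Mid, so that Mid 1 and Mid 2 were below all Late arrays and Mid 3 above them. The pair medians over all its tested genes were 0.50, 0.47 and -0.12. Chromosome 17 split the Mid arrays in the same way with the opposite sign, at -0.092, -0.041 and -0.031 in Late, against 0.14, 0.18 and -0.12 in Mid. Neither was even along its length when cut into 6 runs. On chromosome 17, Mid 1 read -0.0080 and 0.00093 in runs 1 and 2, against 0.14, 0.26, 0.32 and 0.23 in runs 3 to 6. On chromosome 13, Mid 1 read -0.19 in run 1 and -0.75 in run 4, beside Late means of -0.30 and -0.37. Chromosome 19 was above that mean in both, at 0.46, 0.42 and 0.42 in Late, against 0.41, 0.41 and 0.24 in Mid, and at 0.41, 0.31 and 0.34 in XEN. DNA copy number was not measured, and its part in these shifts was not tested.

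**Figure D4:**
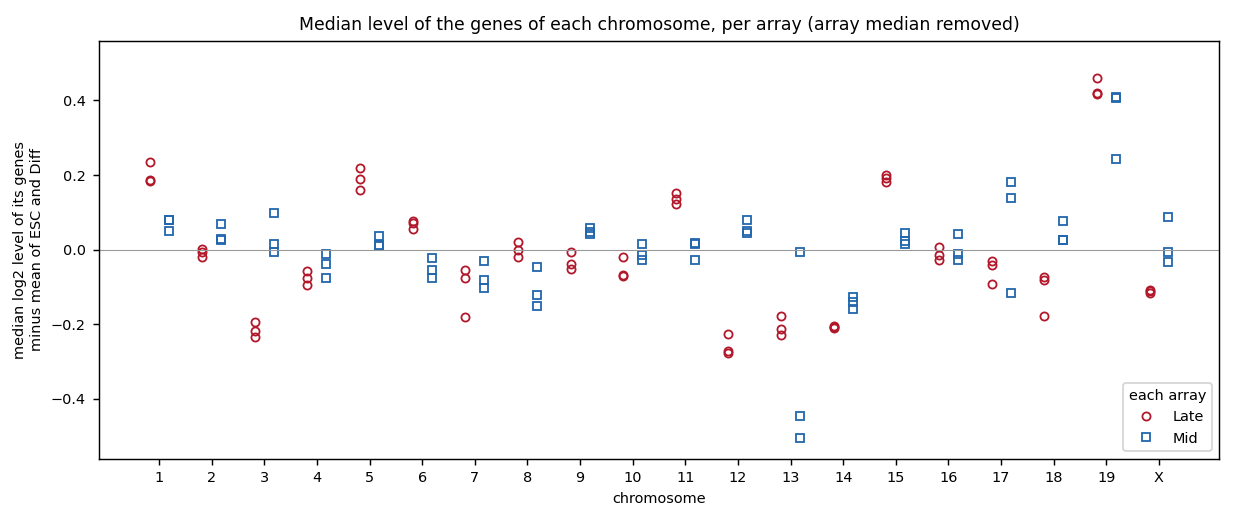
Median log2 level of the genes of each chromosome (horizontal axis) minus the mean of the ESC and Diff arrays, with the array's own median removed; red circles are the 3 Late arrays and blue squares the 3 Mid arrays. On chromosomes 3 and 12 all Late arrays lie below all Mid arrays, on 5, 11 and 15 above, and on 13 Mid 3 stands apart from the other Mid arrays.

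Removing each array's chromosome medians before the fit left 927 calls (5.68%), 494 higher and 433 lower. The cholesterol list then had 5 calls, the serine and threonine list 4, the p53 list 5 and the YAP and contractile list 5, in the directions given above. The fatty acid list had 0 calls and the replication list 4. Bid, Diablo, Ctsl, Fos, Asns, Dnajb9 and Tjp1 were among the genes not called in this setting. The lysosomal list then had 1 lower call, the Wnt list 2 higher and 1 lower, and the respiratory chain list 1 higher. The chemokine and NF-kB list kept 3 lower calls, the imprinted list 2 and the LIF and STAT3 list 1. The naive, mitosis and oxidative stress lists, with 0 calls before, had 1 higher call each, and the visceral list gained 1 higher call.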

How the data were processed

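Spot intensity on the Late and Mid arrays was deposited as read by Agilent Feature Extraction 11.0.1.1, per the file headers (9.1 per the submitters' processing notes), background-corrected by that software, with mm9 as the annotation build. The log2 values were calculated from the deposited processed signal, minus each array's 75th percentile; irregular spots were left out. The authors deposited a series matrix, read as log2, whose scale is not stated. Probes were named through RefSeq (27636 with 1 symbol, 28012 with none, 33 conflicting), and the brightest probe stood for each of 20956 genes; 16333 had a probe marked well above background throughout some group and were tested. One limma model of 9 groups and 29 arrays was fitted (limma 3.58.1, R 4.3.3, the package data.table, version 1.17.8), with Benjamini-Hochberg adjustment, and tested on simulated data. Python 3.11.15, numpy 2.4.6, pandas 2.3.3 and matplotlib 3.10.9 were used. At least N-fold bounds take each dim array at the higher of its value and the lowest signal well above background. Named are the 15 largest calls in each direction without overlap and with 3 pairs of 1 sign, called list members, endoderm and pluripotency members, and genes called in all of 21 alternatives. Members, the 45 lists (719 tested genes) and their rules were chosen with earlier results of these data known. Some called list members are counted but not reported here by name.

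Same-numbered Late and Mid arrays deviated together from their group means: the correlations over genes were 0.22, 0.13 and 0.14 for numbers 1 to 3, against -0.25 to 0.064 for unlike numbers. By a limit of 0.1 the numbers were treated as pairs. Deviations from a mean of 3 arrays are tied to each other, so these correlations are not independent. The labels do not state that a Late culture continued the Mid culture of its number, and this was not tested. Pairs 1 and 2 share slides 3 and 1, and pair 3 shares neither a slide nor a scan day. Normexp used the median signal, in place of a mean signal. The number of arrays limits the precision.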

Additional observations from a re-analysis of the deposited data

How the results depend on the processing

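The 1118 calls (617 higher, 501 lower in Late) were computed again under 28 other settings, 6 of them chosen after seeing the data: the second scan day left out, 1 replicate number left out of both groups (3 settings), centring on all probes and removal of chromosome medians. The cause of each change was not tested. The 15 arrays of the first set gave 719 calls, 332 higher and 387 lower, and the 6 arrays alone 255, 79 and 176. The replicate block gave 1104, 615 and 489 in all arrays, 0 in each count in the 6 arrays alone, and 2113, 1240 and 873 as a random effect. Slide as a fixed term gave 1005 higher, normexp 906 lower, and centring on all probes 384 calls, 90 and 294. Leaving out 1 array gave 409 to 1272 calls, 160 to 779 higher and 217 to 493 lower; leaving out both arrays of 1 number gave 182 to 585, 50 to 348 and 132 to 290. Other settings stayed within 1.5 times the counts. No named gene reversed its sign in any of the 28 settings in which it had a value; 15 of the 94 had none in the series matrix and 29 none among probes well above background on all 6 arrays. Of the 94, 73 were still called with chromosome medians removed, 51 with centring on all probes and 0 with the block in the 6 arrays alone. The replicate block in all arrays changed no other call among the 94 than those of Mcm2, Plk2 and Hexa. Signal over background limits the 25 and 33 genes that were not well above background on any array of 1 group to bounds.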

Other observations

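Probes without a gene symbol hold further signal. Of 15314 such probes tested in a fit of their own, 82 were called, 30 higher and 52 lower in Late, and they are not named here.

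Fibroblast markers had 0 calls by limma (3 at an unadjusted p under 0.05). Other lists with 0 calls, with the number at an unadjusted p under 0.05 in brackets, were the 2-cell and germline list with a median of 0.060 over 14 genes (1), glycolysis with a median of 0.38 over 19 (3), the oxidative stress list with a median of 0.026 over 21 (5), metallothioneins and zinc transporters with a median of -0.29 over 11 (3), BMP targets with a median of 0.044 over 16 (0), liver-type genes with a median of 0.36 over 15 (1), DNA methylation with a median of 0.32 over 15 (4) and the mesoderm and blood list with a median of 0.064 over 14 (3). In glycolysis, 15 of 19 genes had a positive difference and 10 had higher Late arrays without overlap, 2 lower, beside 17.8% and 11.7% of all genes. Single calls in other lists were Car9, a hypoxia-induced carbonic anhydrase (1.55 ± 0.38), the asparagine synthetase gene Asns (0.74 ± 0.21), the chaperone gene Dnajb9 (-1.07 ± 0.26), Ovol1 (2.52 ± 0.52) and the tight junction gene Tjp1 (-0.68 ± 0.20). The respiratory chain list had Cox5b (0.88 ± 0.23) and Uqcrfs1 (0.82 ± 0.21) called higher (8%, beside 6.85% of all genes called). In that list 24 of 25 genes were positive and the median was 0.30, beside 0.12 over all genes. The list median was 0.074 with quantile normalization and 0.15 with arrays centred on all probes, beside 0.0017 and -0.039 over all genes. Neither Cox5b nor Uqcrfs1 was called without Late 1, Late 3 or Mid 2, nor with arrays centred on all probes. Car9 and Dnajb9 were not called without Late 1, Late 3 or Mid 1, Asns was called without Mid 1 and under no other omission of 1 array, Tjp1 under none and Ovol1 under all 6.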
